A study of Mus musculus with 30 samples.

Results

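Pth1r and Pthlh, the receptor and its local ligand, were followed in mouse epiblast stem cells (EpiSCs) and in the definitive endoderm (DE) derived from these cells. They are 2 of the 29555 genes counted. The peaks taken with them, by position alone, were all those in either gene or within 50 kb of it, which are 28 of 158917 in the peak table of DE and EpiSCs and 34 of 181059 in the peak table of EpiSCs. The genes were chosen by their RNA counts in C57BL/6 (B6) DE and EpiSCs, so that contrast is described for them without a test. ATAC-seq, which counts fragments cut from open chromatin, came from other libraries and was tested, as were the RNA levels among EpiSC strains.

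The EpiSCs had been kept for 5 to 10 passages on feeder cells in N2B27 medium with Fgf2, ActivinA and NVP-TNKS656, an inhibitor of Wnt signalling, and were lifted with collagenase. For DE, B6 EpiSCs received CHIR99201 (a Wnt agonist, spelled as in the labels) with ActivinA for 16 h and then ActivinA with the BMP inhibitor LDN193189 for 24 h, and CXCR4+ cells were taken with magnetic beads. The labels also state a total of 46 h, longer than both steps together. RNA came from 5 B6 EpiSC and 4 B6 DE libraries and from EpiSCs of PWK/PhJ (3), B6.129 F1 (3, written B6129F1 here) and DBA/2J (1). ATAC-seq came from 4 B6 EpiSC, 4 B6 DE, 2 PWK and 1 DBA libraries. Replicates carry numbers without a statement of what was repeated, so a p-value measures the spread between these libraries.

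Pthlh encodes parathyroid hormone-related protein, a secreted peptide that acts near the cells that make it, whereas Pth encodes the hormone that circulates. Both bind the product of Pth1r, a receptor of the class B family that couples through Gs to adenylyl cyclase, cyclic AMP and protein kinase A, and through Gq to phospholipase C. The pair is best known from cartilage, where it works with Indian hedgehog, and in the early mouse embryo it is known for its action on parietal endoderm.

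Pth1r (ENSMUSG00000032492) lies on the minus strand at chr9:110722085-110747145 of GRCm38, and RefSeq gives it 3 start sites: start 1 at its outer end, start 2 3459 bases further in and start 3 4535 bases in. Pthlh (ENSMUSG00000048776) lies on the minus strand at chr6:147252109-147264013 and has 1 start. The 250 bases before each start are shown because the accessibility results turn on them: no peak of the DE table touched any of the Pth1r windows, and the Pthlh window held a peak in both states. They are RefSeq sequence of GRCm38.p6, 5′ to 3′ on the gene's strand. Capitals mark a CCAAT box (CCAAT) before start 1, GC boxes (GGGCGG on either strand) before starts 2 and 3, and the bases of the peak before Pthlh.
Pth1r start 1, chr9:110747146-110747395: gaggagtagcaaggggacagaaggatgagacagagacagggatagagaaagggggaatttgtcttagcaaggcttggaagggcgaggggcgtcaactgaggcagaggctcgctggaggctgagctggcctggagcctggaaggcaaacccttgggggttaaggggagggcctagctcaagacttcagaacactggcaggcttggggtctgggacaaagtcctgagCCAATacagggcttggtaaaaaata
Pth1r start 2, chr9:110743687-110743936: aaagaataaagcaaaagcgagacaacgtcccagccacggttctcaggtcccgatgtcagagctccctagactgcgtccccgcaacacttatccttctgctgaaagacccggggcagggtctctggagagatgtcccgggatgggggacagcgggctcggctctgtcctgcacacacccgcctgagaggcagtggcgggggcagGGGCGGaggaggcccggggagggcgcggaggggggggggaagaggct
Pth1r start 3, chr9:110742611-110742860: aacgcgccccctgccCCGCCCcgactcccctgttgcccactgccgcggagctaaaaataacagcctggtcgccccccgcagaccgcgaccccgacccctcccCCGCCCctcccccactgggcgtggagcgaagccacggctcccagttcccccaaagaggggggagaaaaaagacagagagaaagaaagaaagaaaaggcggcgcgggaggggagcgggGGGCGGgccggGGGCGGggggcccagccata
Pthlh start, chr6:147264014-147264263: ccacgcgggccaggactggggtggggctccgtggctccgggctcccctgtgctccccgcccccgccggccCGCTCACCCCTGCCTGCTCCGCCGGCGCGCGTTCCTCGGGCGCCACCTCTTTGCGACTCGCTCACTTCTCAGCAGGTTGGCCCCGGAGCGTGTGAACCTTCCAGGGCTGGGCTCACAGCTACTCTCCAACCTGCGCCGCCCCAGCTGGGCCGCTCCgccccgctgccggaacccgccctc

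The windows differed in base composition. Before start 1 of Pth1r, G and C made up 56.0% of the bases, with 3 CpG dinucleotides, near the medians of 52.4% and 6 over 32817 such windows of all RefSeq starts. Start 2 followed 65.6% G and C with 16 CpG, start 3 70.4% with 22 CpG, and Pthlh 75.2% with 26 CpG, more G and C than in 96.1% of all windows. On both strands, GGGCGG occurred 4 times before Pthlh, 4 times before start 3 and 1 time before start 2, and 32.7% of all windows held it. CCAAT occurred 1 time, before start 1, and is present in 33.8% of windows. None of the 4 windows held the letters of the other motifs searched in the same way. These were the core promoter motif TATAAA, present in 12.4% of windows, and the endoderm factor motifs for zinc finger proteins of the Gata family, AGATAA, in 9.99%. For Sox proteins the letters AACAAT, found in 9.42% of windows, were searched, and for forkhead proteins TGTTTAC, found in 3.16%. The cyclic AMP response element was searched as TGACGTCA, which 1.55% of windows hold, and the E-box as CACGTG, which 6.02% hold. Matches to a few letters describe the sequence and are not binding sites.

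The libraries were first set against marker genes. The 10 definitive endoderm markers, which include Cxcr4 of the sort, summed to 7628 to 14870 CPM (counts scaled to the TMM library size) in DE and 166 to 556.8 in B6 EpiSCs, and 10 of 10 were called higher (edgeR, adjusted p under 0.05 over all genes). Over all genes tested, 31.5% were called higher and 30.6% lower, the shares to set beside the counts in each list. Of 8 primed pluripotency markers, 2 were called higher and 5 lower. Their sums overlapped, at 2987 to 3984 CPM in DE and 2823 to 4212 in B6 EpiSCs, but members moved in both directions. Pou5f1 was at 2.46 to 37.8 CPM in DE and 981.1 to 1330 CPM in B6 EpiSCs. Sox2 was at 0.121 to 2.69 CPM in DE and 35.2 to 101.1 CPM in B6 EpiSCs. Feeder fibroblast markers summed to 205.3 to 410.0 CPM in DE and 89.5 to 3076 in B6 EpiSCs, with 0 of 12 higher and 8 lower. The sum of 89.5 CPM, in EpiSC replicate 1, was below that of every DE library. In the other EpiSC replicates the sum, 474.1 CPM or more, was above that of every DE library. Parietal endoderm markers gave 2 higher and 2 lower of 10, with sums of 934.5 to 1057 and 424.3 to 2324 CPM. For visceral endoderm, 4 of 7 tested were higher (42.17 to 135.6 against 3.654 to 19.19 CPM, Ttr at 0 in the EpiSCs). Mesoderm gave 2 higher and 3 lower of 6 tested (38.69 to 69.81 against 117.3 to 558.3 CPM). Neuroectoderm gave 0 higher and 4 lower of 5 tested (6.801 to 21.03 against 378.7 to 814.7 CPM). For bone and cartilage cells, which also use Pth1r, 1 was higher and 3 lower of 5 tested (50.86 to 172.8 against 33.31 to 93.56 CPM). Of the 8 markers in this list, the bone markers Ibsp and Sp7 were at 0 in every DE library. The highest sum, 172.8 CPM in DE replicate 44, came from other members. The part of these cell types in the results was not tested.

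Pth1r RNA was present in every DE library and in none of the B6 EpiSC libraries. The 4 DE libraries held 821, 2855, 2098 and 1596 counts (replicates 2, 4, 44 and 51), or 41.7, 47.3, 82.0 and 24.2 CPM, a mean of 48.8 ± 24.2 (SD, n = 4). The 5 EpiSC libraries held 0 counts of 134414113 in all. Taking 3 counts as the limit that a count of 0 allows in each library (0.0970 to 0.114 CPM), the DE mean was at least 449-fold higher and the lowest DE library at least 212-fold higher. In bulk RNA, more cells with the transcript and more transcript in each cell cannot be told apart.

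Among all genes, Pth1r alone had 0 counts in the 5 B6 EpiSC libraries and at least 100 counts in each DE library, and this stayed so at 800 counts. In the other direction 5 genes met the limit of 100 (Cend1, Fat3, Foxi3, Gm15516 and Pck2) and Pck2 alone that of 800. Those limits were chosen after the values were seen. The groups did not overlap for Pth1r, which was also so for 55.6% of the 14085 genes tested. Within DE the level spanned more than a factor of 3, from replicate 51 to replicate 44. These 2 libraries also had the lowest (7628 CPM) and the highest (14870 CPM) sum of the endoderm markers. Cer1 (3406 and 9585 CPM) made up much of it, whereas Cxcr4 was lower in replicate 44 (61.2 CPM) than in replicate 51 (76.2 CPM). The order was the same for the sums of the primed pluripotency (2987 and 3984 CPM) and bone and cartilage markers (50.86 and 172.8 CPM). The other marker lists did not have it, and the relation to Pth1r was not tested. Absence in EpiSCs went with low but nonzero endoderm transcripts: Sox17, an endoderm transcription factor, had 17 to 294 counts in the same 5 libraries.

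Pthlh had the opposite pattern at a far lower level. B6 EpiSC replicates 1, 2, 4, 44 and 51 held 0, 5, 18, 7 and 8 counts, or 0, 0.190, 0.649, 0.226 and 0.295 CPM, a mean of 0.272 ± 0.238 (SD, n = 5). All 4 DE libraries held 0, with 174799584 counts in all, so the EpiSC mean was at least 2.98-fold higher than the limit in DE. Without EpiSC replicate 4, which holds 18 of the 38 counts, it was at least 1.95-fold higher. The groups meet at 0, since EpiSC replicate 1 also had no count. Feeder markers summed to 89.5 CPM in that library, to 474.1 CPM in replicate 4, which had the most Pthlh, and to 3076 CPM in replicate 51, and their part in the Pthlh counts was not tested. Pthlh was too low for the filter in this comparison. The circulating hormone Pth and the related ligand Pth2 had 0 counts in every library of both tables, and the second receptor, Pth2r, was also too low to test.

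**Figure D1:**
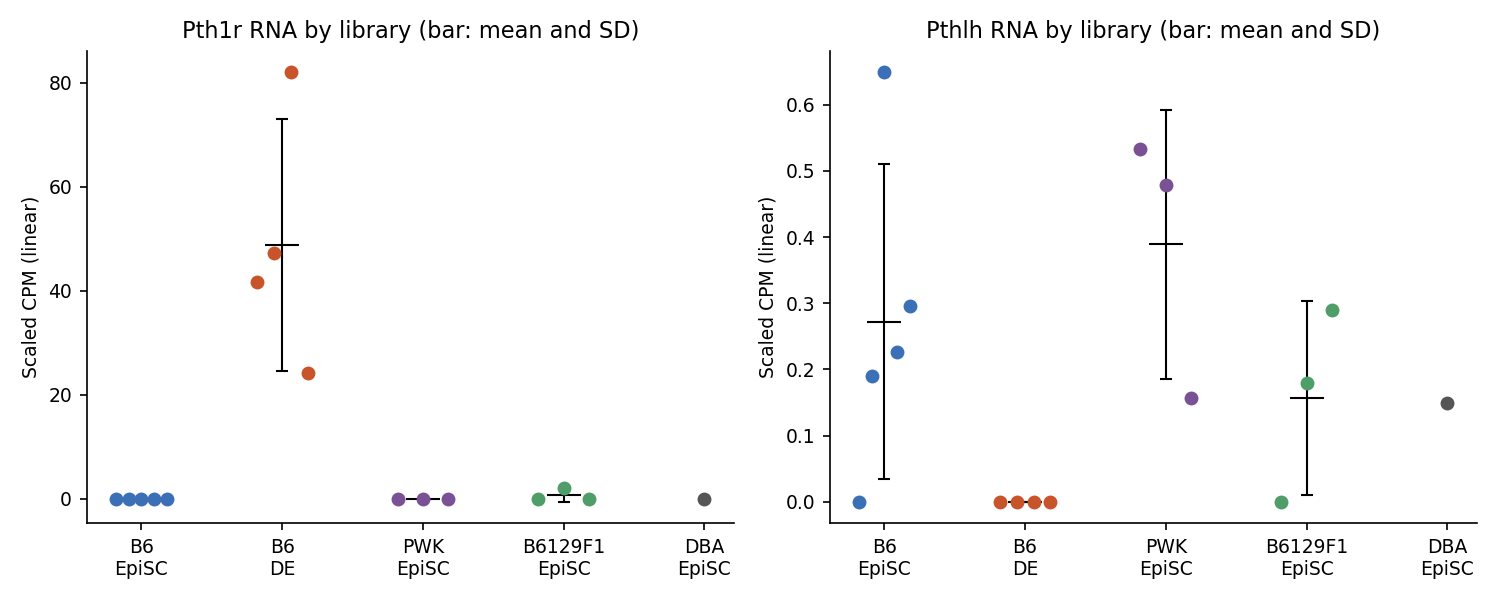
RNA of Pth1r (left) and Pthlh (right) in scaled CPM on linear axes, 1 point per library, with the mean and SD of groups of 3 or more. Pth1r sits between 24.2 and 82.0 CPM in the 4 B6 DE libraries and at 0 in all EpiSC libraries but 1 B6129F1 library, at 2.19 CPM, whereas Pthlh stays below 0.7 CPM throughout.

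Across the EpiSC strains, Pth1r had 0 counts in the 3 PWK libraries, the DBA library and B6129F1 replicate 4 and the unnumbered B6129F1 library. B6129F1 replicate 9 held 61 counts, 2.19 CPM. Its endoderm markers summed to 417.2 CPM, close to the 404.1 CPM of the unnumbered library with no Pth1r count. Sox17 was at 8.82 CPM in replicate 9 and 8.58 CPM in the unnumbered library. Cer1 (91.96 against 142.7 CPM), Gata6 (11.05 against 14.55) and Cxcr4 (11.69 against 18.7) were lower in replicate 9. Pthlh was at 13, 16 and 4 counts in PWK (BioRep698, BioRep695 and unnumbered), 0, 5 and 7 in B6129F1 (4, 9 and unnumbered) and 4 in DBA. On the CPM scale, PWK averaged 0.389 ± 0.204 (SD, n = 3), B6 0.279 ± 0.243 (n = 5) and B6129F1 0.157 ± 0.146 (n = 3), and neighbouring groups in that order overlapped. Neither difference from B6 passed the test: PWK minus B6 was 0.48 on the log2 scale (SE 0.94, adjusted p = 0.733) and B6129F1 minus B6 was -0.88 (SE 1.04, adjusted p = 0.657). Of all genes tested, 26.5% and 2.84% were called in these comparisons. With counts this low the errors leave room for a change of several fold in either direction.

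Chromatin around Pth1r opened at a few places in DE. Of 20 peaks in the gene or within 50 kb, 18 could be tested, of which 6 were called higher in DE, 1 lower and 11 neither, or 38.9% called. Of all 113870 peaks tested, 57.6% were called (32.6% higher, 25% lower), so the share at Pth1r was no larger than elsewhere. The groups did not overlap at 8 of the 18 tested peaks, against 53.8% of all peaks tested, and at 2 further peaks too low to test. The count of lower peaks was unstable: 2 without DE replicate 4 or without EpiSC replicate 1, 4 or 44, and 3 without EpiSC replicate 51.

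The peak at chr9:110745523-110746122, inside Pth1r and 1.32 kb downstream of start 1, was the most accessible of the 20 in DE. Its DE libraries had 64.3, 51.2, 60.8 and 36.5 CPM (replicates 2, 4, 44 and 51) and its EpiSC libraries 6.09, 6.30, 5.83 and 4.13 CPM (replicates 1, 4, 44 and 51). All DE libraries lay far above all EpiSC libraries, a log2 change of 3.25 (SE 0.20, adjusted p = 2.43e-10, n = 4 and 4). It lies between starts 1 and 2 and covers no start site.

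At chr9:110752971-110753430, 6.06 kb upstream of start 1 and in no gene, DE had 24.5, 14.7, 28.6 and 17.0 CPM and EpiSCs 0.914, 1.43, 0.972 and 2.07 CPM in the same order of replicates. Again no library overlapped, with a log2 change of 3.93 (SE 0.32, adjusted p = 4.62e-09), the largest among the 18 tested. No peak of the EpiSC table overlapped it. The third largest change, after those at these 2 peaks, was at chr9:110709290-110709462, which lies 37.8 kb downstream of start 1 within Ccdc12, and held 7.25, 5.80, 5.18 and 4.94 CPM in DE against 2.74, 2.39, 1.46 and 1.18 in EpiSCs (log2 change 1.54, SE 0.37, adjusted p = 0.00136).

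The other 3 peaks called higher had log2 changes of 0.90 to 1.48. They are chr9:110733248-110733383 inside Pth1r, chr9:110759403-110759540 upstream, and chr9:110763483-110763695, which overlaps the start of the neighbouring gene Myl3. The call of chr9:110759403-110759540 was lost with total library size as the scaling and when any 1 library other than DE replicate 51 or EpiSC replicate 4 was left out, with log2 changes down to 0.53 (without EpiSC replicate 51). The lower peak, chr9:110709799-110710067 in Ccdc12, changed by -0.58 (adjusted p = 0.0214). Accessibility that did not pass the test included the second most open site of the gene, chr9:110732582-110732955, with 41.4 ± 4.5 CPM in DE and 36.3 ± 1.9 in EpiSCs (SD, n = 4 and 4, adjusted p = 0.228), and its direction turned with total library size and without DE replicate 2. Hence an open site inside Pth1r was present in EpiSCs, whose RNA libraries held no Pth1r count. Summed over the 20 peaks, DE libraries had 197.4 to 264.3 CPM and EpiSC libraries 155.3 to 179.5 CPM.

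Pthlh kept its open promoter in DE, where its RNA was at 0. The peak at chr6:147264038-147264193 covers the bases 180 to 25 before the start, those in capitals above. It held 11.2, 7.21, 10.6 and 9.34 CPM in DE and 10.2, 10.2, 6.80 and 4.87 CPM in EpiSCs, and the groups overlapped. The log2 change was 0.24 (SE 0.28, adjusted p = 0.475), and without EpiSC replicate 51 it was -0.16, so it has no settled direction. The peak at chr6:147263227-147263350, just inside the gene, did not pass either (log2 change -0.56, SE 0.40, adjusted p = 0.237).

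Further inside the gene, 3.06 kb from the start, accessibility fell. At chr6:147260867-147261040 DE had 0.784, 0, 0.409 and 0 CPM and EpiSCs 5.48, 3.82, 1.70 and 3.69 CPM, with no overlap. The log2 change was -3.51 (SE 0.67, adjusted p = 0.000141), and it was -4.45 without DE replicate 2. Downstream of Pthlh, chr6:147203689-147203987 in the noncoding gene E330012B07Rik rose, from 2.74, 3.05, 3.40 and 2.80 CPM in EpiSCs to 17.1, 24.6, 24.0 and 22.5 CPM in DE (log2 change 2.88, SE 0.24, adjusted p = 6.07e-09). So did chr6:147243500-147243689 in the noncoding gene Gm15767, from 1.22, 0.191, 0 and 0.590 CPM to 4.71, 2.98, 7.50 and 4.94 CPM (log2 change 3.26, SE 0.58, adjusted p = 6.44e-05, and 3.99 without EpiSC replicate 1). In all, 2 of the 7 tested peaks around Pthlh were higher, 2 lower and 3 neither, 57.1% called against the 57.6% of all peaks.

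**Figure D2:**
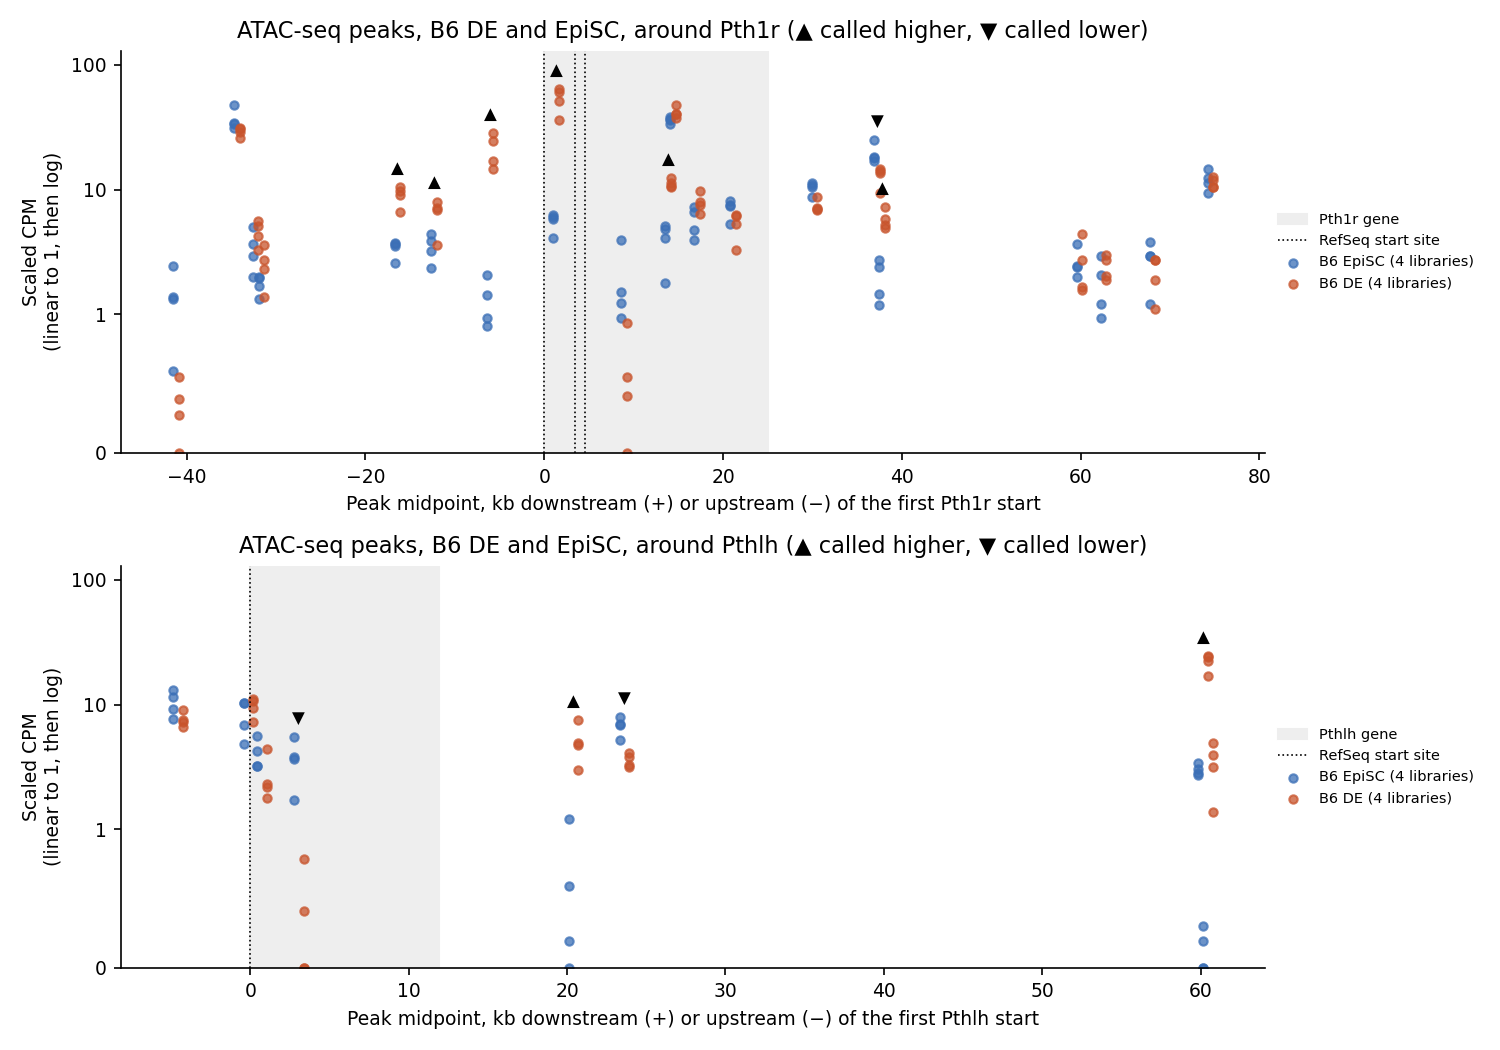
Scaled CPM of each ATAC-seq peak around Pth1r (top) and Pthlh (bottom), 1 point per library, against its distance in kb from the outermost start; the vertical scale is linear to 1 and logarithmic above. The DE points stand apart from the EpiSC points just after and 6.06 kb before start 1 of Pth1r, where triangles mark called peaks, and overlap at the Pthlh start.

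The 2 genes measured within 50 kb of Pth1r were higher in DE as well. RefSeq places 5 genes within 50 kb, of which 2 matched the count table by symbol, and both were called higher, against 31.5% of all genes. Of 5 genes tested within 100 kb, 3 were higher and 2 lower. The lower ones were Nbeal2 and Prss42, the latter 50.1 kb away and just outside the window. Ccdc12, 10.5 kb away, had 126.7, 47.4, 47.8 and 78.1 CPM in DE and 26.4 to 38.6 in EpiSCs (log2 change 1.12, SE 0.28, adjusted p = 0.00594). Myl3, which encodes a myosin light chain of heart and slow muscle and lies 16.5 kb upstream, had 28.5, 7.19, 12.8 and 3.55 CPM in DE and 1.67, 0.190, 3.68, 1.39 and 0.111 CPM in EpiSCs (log2 change 3.20, SE 0.93, adjusted p = 0.0118). It was 2.48 without DE replicate 2 and 3.93 without EpiSC replicate 4. For Myl3 the groups overlapped, DE replicate 51 lying below EpiSC replicate 4. The 3 called upstream peaks lie between the starts of Pth1r and Myl3 or over the start of Myl3, the other 4 upstream peaks lie beyond Myl3, and these data do not say to which gene, if any, they belong. Another RefSeq gene, the noncoding Gm35775, lies within Pth1r and was not matched, and whether counting used strand is not given in the sources used here. Of the 3 genes within 50 kb of Pthlh, Gm15766 alone matched and had 0 counts in every library.

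The signalling machinery of the receptor was present in both states, with members moving both ways. Of 114 genes in 12 lists (the PTH family genes Pth, Pth2 and Pth2r among them, Pth1r and Pthlh left out), 97 were tested in B6, of which 15 were called higher in DE and 40 lower, or 56.7% against 62% of all genes (31.5% higher, 30.6% lower). The median log2 change was -0.85, beside -0.01 over all genes. Of the feeder markers, 8 of 12 were also called lower. Their sum was below every DE library in EpiSC replicate 1 (89.5 CPM) and above every DE library in the other EpiSC replicates (474.1 to 3076 CPM). Their part in the lower list genes was not tested.

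Among other receptors of the class, 1 of 7 tested was higher and 2 were lower. The calcitonin receptor Calcr went from 10.2 ± 2.6 CPM in EpiSCs (SD, n = 5) to 1.75 ± 1.27 in DE (n = 4), a log2 change of -2.52 (adjusted p = 0.00319), and its relative Calcrl changed by -2.91 (adjusted p = 0.00941). Adcyap1r1, the PACAP receptor, did not pass (-2.27, adjusted p = 0.0689), but passed with DESeq2 (-2.29, adjusted p = 0.0204) and without DE replicate 51 (-1.84). Receptor partners split, with 4 of 12 higher and 6 lower. The scaffold proteins of the NHERF family, which bind the tail of the receptor, rose: Slc9a3r1 from 108.1 ± 15.4 to 535.0 ± 67.8 CPM (log2 change 2.31, adjusted p = 1.28e-06) and Slc9a3r2 by 4.11 (adjusted p = 2.70e-06). Ramp3, an accessory protein of such receptors, fell by 4.05 on the log2 scale (adjusted p = 4.06e-05). Its relative Ramp2 rose by 1.67 (adjusted p = 0.00152), and Ramp1 was too low to test. The receptor kinase Grk6 did not pass (0.33, adjusted p = 0.106).

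G protein subunits were all called, 3 of 6 higher and 3 lower. Gnas, which encodes Gs alpha, rose from 520.8 ± 56.7 CPM (EpiSC range 460.7 to 607.6) to 1544 ± 95.6 (DE range 1444 to 1650), a log2 change of 1.57 (SE 0.12, adjusted p = 3.53e-06). Gna12 rose by 2.49 (adjusted p = 2.97e-06). The adenylyl cyclases that Gs stimulates showed 0 higher and 2 lower of 9: Adcy6 changed by -2.0 (adjusted p = 0.000162) and Adcy9 by -2.39 (adjusted p = 0.00471, and -3.29 without DE replicate 4). Adcy1 did not pass (0.54, adjusted p = 0.146), except without DE replicate 51 (0.74). Of the enzymes after Gq, 2 of 8 were higher and 1 lower. Plcb3 rose from 75.2 to 145.8 CPM (log2 change 0.96, adjusted p = 0.00604) and Prkcd by 0.72 (adjusted p = 0.000763), and Plcb1 was at 0 counts in all DE libraries against 1.15 to 2.14 CPM in EpiSCs, at least 19.2-fold lower.

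Protein kinase A, which cyclic AMP activates, had 3 of 11 genes higher and 4 lower. Its catalytic subunit Prkaca rose by 0.98 (adjusted p = 0.00347) and the regulatory subunit Prkar1a by 0.78 (adjusted p = 0.000163). Prkar2b fell by 1.92 (adjusted p = 0.000491), and the anchoring protein Akap12 went from 339.6 to 568.8 CPM in EpiSCs to 0 to 14.2 in DE (log2 change -5.90, adjusted p = 0.000457, and -6.49 without DE replicate 51). Phosphodiesterases, which degrade cyclic AMP, had 0 higher and 5 lower of 9. Pde3b fell by 2.44 (adjusted p = 4.04e-05) and Pde4b by 2.75 (adjusted p = 0.00121, and by 3.40 without DE replicate 4), and Pde7b was at 0 in DE, at least 12.1-fold lower. Pde7a, with a log2 change of -0.53 (adjusted p = 0.0450), lost its call with no filter and when any 1 library other than DE replicate 4 or 51 was left out.

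Of the CREB factors and coactivators, which act at cyclic AMP response elements, 1 of 10 was higher and 5 were lower. Creb1 fell by 1.16 (adjusted p = 0.000489), Ep300, a coactivator, by 2.02 (adjusted p = 4.63e-06) and Sik3, a kinase that restrains the coactivators, by 1.29 (adjusted p = 3.69e-05). Genes that respond to cyclic AMP gave 1 higher and 4 lower of 12. The 2 most abundant, Junb (0.53, adjusted p = 0.200) and Sik1 (-0.81, adjusted p = 0.0885), did not pass. Junb passed without EpiSC replicate 4 (0.80), and Sik1 with DESeq2 (-0.87) and without DE replicate 4 (-1.07) or 51 (-1.09). Ptgs2 fell by 4.68 (adjusted p = 0.00185) and Areg by 2.89 (adjusted p = 0.00865). Enzymes that can cut the Pthlh precursor gave 0 higher and 3 lower of 6: Furin differed by -0.04 (SE 0.23, adjusted p = 0.900) with no settled direction, Pcsk6 fell by 1.90 (adjusted p = 0.000393) and Pcsk2 had 1 count in all DE libraries against 736 in all EpiSC libraries. Scaled to library size, that is 912-fold lower, with an exact 95% interval of 163 to 36090 that covers counting error only. Hedgehog genes, the partners in the growth plate, gave 0 higher and 5 lower of 7. Ptch1, the Hedgehog receptor, fell by 1.82 (adjusted p = 0.00417), Gli3 by 4.62 (adjusted p = 2.65e-06) and Shh by 3.46 (adjusted p = 0.00594), and Smo did not pass (-0.18, adjusted p = 0.471, and 0.024 without DE replicate 2). Shh varied from 1.94 to 30.0 CPM among EpiSC libraries and its groups overlapped, and Ihh and Dhh were too low to test.

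**Figure D3:**
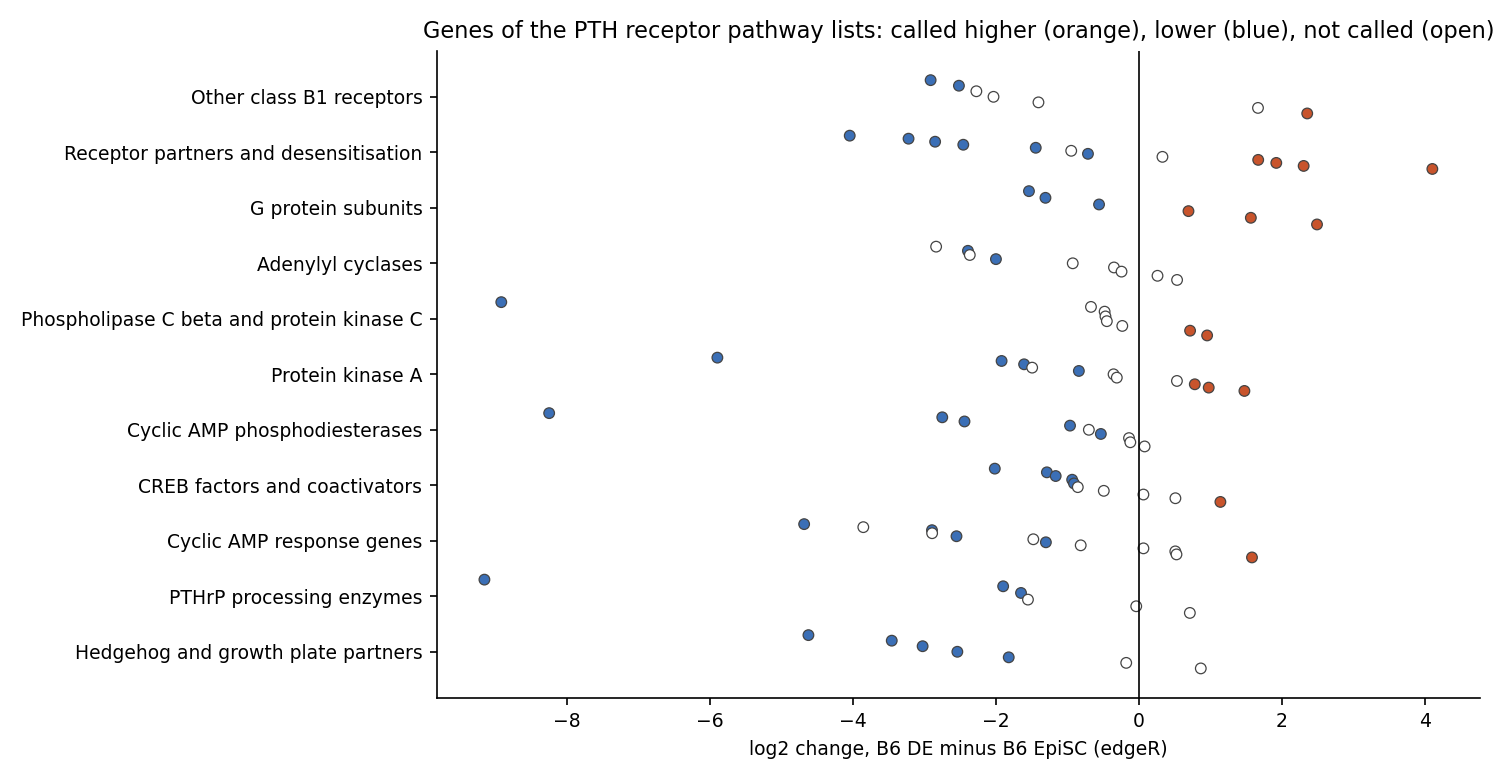
Log2 change of each tested gene of the pathway lists in B6 DE against B6 EpiSCs, 1 point per gene and 1 row per list, orange where called higher, blue where called lower and open where not called. Blue points outnumber orange ones (40 and 15), and the G protein row has 3 of each; genes at 0 in DE, such as Plcb1, are drawn at the fitted value, which is not a bound.

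The same lists in PWK against B6 EpiSCs gave 15 higher and 12 lower of 99 tested, 27.3% beside 26.5% of all genes (12% higher, 14.5% lower). With total library size as the scaling they were 20 and 9, and the share of called genes that were higher went from 45.4% to 56.6% over all genes. The counts fell whichever PWK library was left out: 6 and 6 without BioRep695, 8 and 5 without BioRep698, and 7 and 7 without the unnumbered library. Ccdc12 was lower in PWK, at 24.1 ± 1.7 CPM against 35.5 ± 4.8 in B6 (SD, n = 3 and 5, log2 change -0.55, adjusted p = 0.00760), and Myl3 did not pass (0.35, adjusted p = 0.802). Feeder markers summed to 2533 to 3265 CPM in PWK and 93.71 to 3134 in B6, and their part was not tested.

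Around Pth1r the EpiSC peak table held 25 peaks, of which 23 were tested between PWK and B6, with 1 higher and 1 lower, 8.70% against 5.11% of all 137667 peaks tested (1.42% higher, 3.68% lower). The higher one, chr9:110779403-110779495, 32.3 kb upstream of start 1, had 9.68 and 8.76 CPM in PWK (BioRep698 and unnumbered) and 5.09, 2.28, 3.75 and 3.19 CPM in B6 (1, 4, 44 and 51), and DBA had 5.71. Its log2 change was 1.39 (adjusted p = 0.0470), and it was no longer called when any 1 of the 6 libraries was left out. The lower one, chr9:110687189-110687320 in Ccdc12, had 0 and 0.216 CPM in PWK against 2.01, 3.0, 3.25 and 4.56 in B6 and 4.01 in DBA (adjusted p = 0.00962). Summed, these are 2 counts in PWK and 85 in B6, 23.7-fold lower in PWK at equal library size, with an exact 95% interval of 6.37 to 199.2 for counting error only.

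The site that opened in DE inside Pth1r was weakly open in the EpiSCs of each strain. There, chr9:110745620-110746096 had 6.86 and 2.38 CPM in PWK, 6.02, 6.63, 5.99 and 3.80 in B6 and 4.17 in DBA. PWK minus B6 was -0.31 on the log2 scale (SE 0.45, adjusted p = 0.798), and it was 0.28 without the unnumbered PWK library. Low peaks also lay 335 bases from start 3 (chr9:110742234-110742316) and 458 bases from start 2 (chr9:110744106-110744183), with B6 means of 1.53 and 1.34 CPM. Neither passed the test in PWK (adjusted p = 0.792 and 0.404).

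No peak around Pthlh was called between PWK and B6, among 7 tested of 9, with adjusted p from 0.122 to 0.877. The promoter peak, chr6:147264039-147264187, had 8.09 and 6.92 CPM in PWK, 10.3, 11.1, 6.99 and 5.01 in B6 and 12.7 in DBA (log2 change -0.16, adjusted p = 0.877, and 0.028 without B6 replicate 4). The peak just inside the gene, chr6:147263227-147263350, had 1.41 in each PWK library and 3.24 to 5.74 CPM in B6. The groups did not overlap there, as at 25.9% of all peaks tested, with a log2 change of -1.54 (SE 0.53) that missed the threshold (adjusted p = 0.122). Upstream, the low peak chr6:147264940-147265037 was too low to test. Among peaks with means of at least 1 CPM in B6 and over all libraries, the DBA library differed more than 2-fold from the B6 mean at 2 of 24 around Pth1r and 2 of 7 around Pthlh, beside 23.9% of all such peaks, with no test since there was 1 library. The low upstream peak at Pthlh fell short of that level, with 1.85 CPM in DBA and a B6 mean of 0.714.

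**Figure D4:**
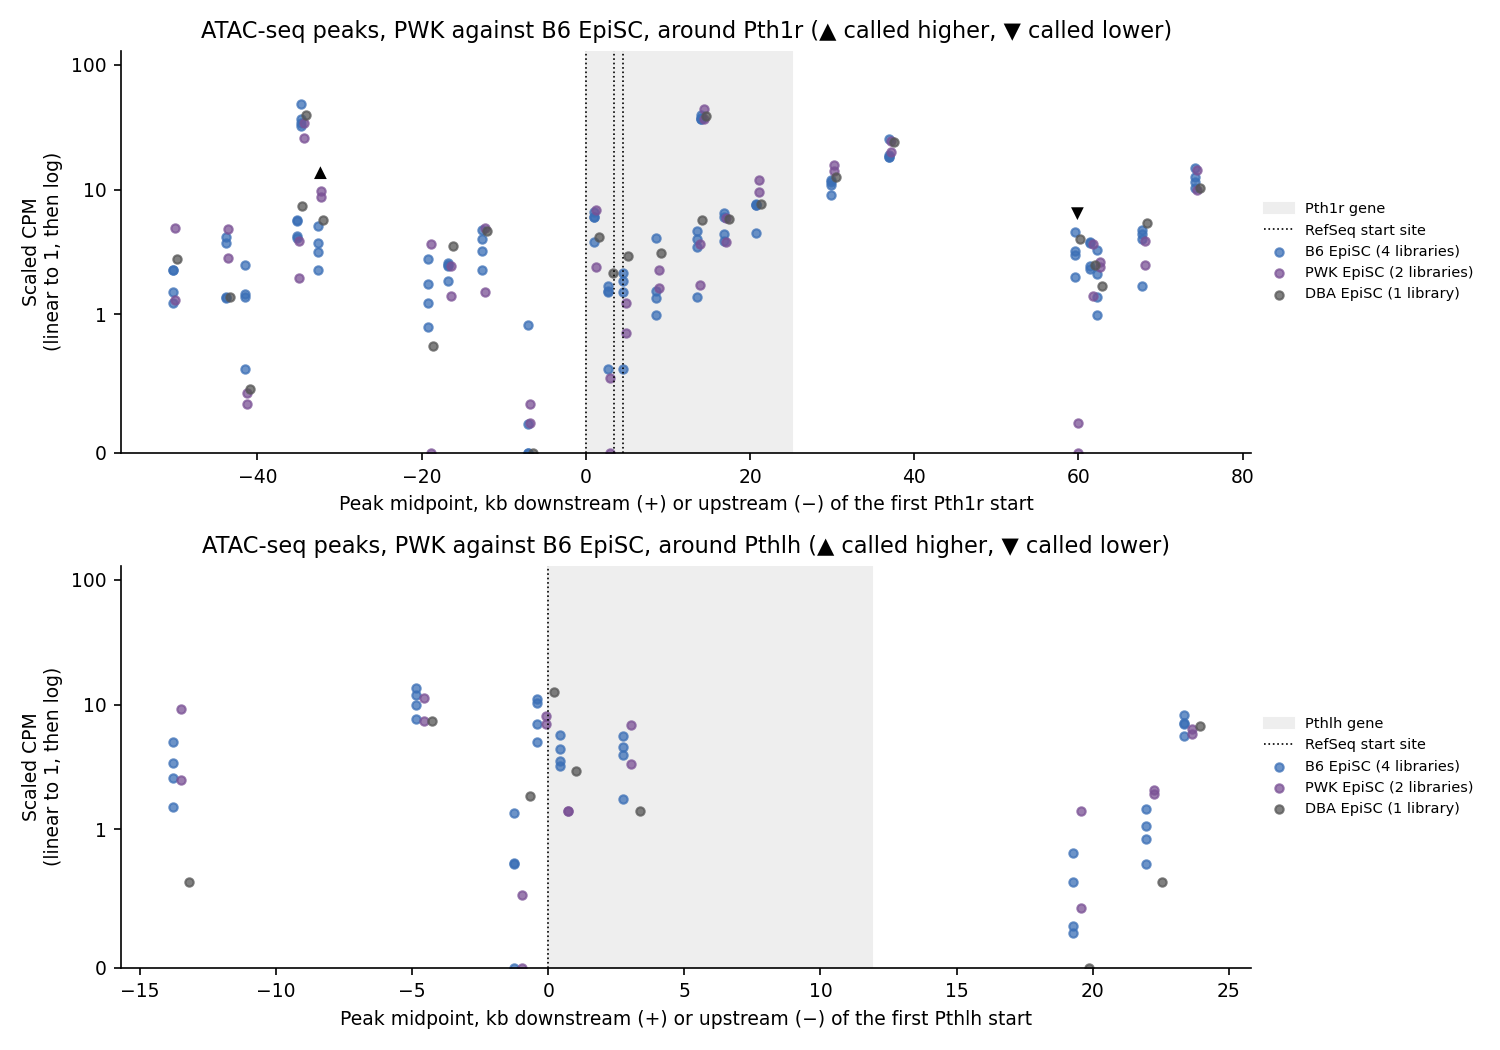
Scaled CPM of each ATAC-seq peak of the EpiSC table around Pth1r (top) and Pthlh (bottom), 1 point per library, against distance in kb from the outermost start; the vertical scale is linear to 1 and logarithmic above. B6, PWK and DBA points mostly overlap, and the triangles mark the 2 peaks called between PWK and B6, both outside Pth1r.

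The genes whose levels ran most like Pth1r across the 9 B6 libraries, by Pearson's r of log2 CPM among 9282 genes of at least moderate level, were Pomgnt1, Stx5a, Rnf167, Col23a1 and Erp44, with r from 0.996 to 0.997. Pth1r was chosen by these same libraries and is at 0 in all EpiSCs, and 915 genes had an r over 0.95, so the order among them is a description only. Of the 5 named, Col23a1, a membrane collagen, was itself near absent in EpiSCs, at 1.14 to 1.88 CPM, and 71.9 to 199.4 CPM in DE. For Pthlh over the same libraries, they were Serpinh1, Sfswap, Tkt, Crocc and Mcm5, with r from 0.911 to 0.955. Serpinh1, a collagen chaperone, ranged from 79.5 to 272.8 CPM in EpiSCs and from 59.7 to 94.8 in DE. Over the 12 EpiSC libraries, Rhob, Tnrc18 and Tead3 came closest, with r from 0.878 to 0.908. All Pthlh values rest on at most 18 counts a library.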

How the data were processed

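The authors deposited raw counts per Ensembl gene and raw counts per ATAC-seq peak, and the unit was checked on the values. The submitters' processing notes name Salmon, featureCounts, DESeq2, fastp, Bowtie2, MACS2 and the build mm10, with no roles. Per the file headers, each peak table has 1 peak set for all its libraries; peak coordinates are printed as deposited, and whether they count from 0 or 1 is not given in the sources used here. Totals per library were 22829536 to 66563933 (RNA, DE table), 24529054 to 29947841 (RNA, EpiSC table), 3751526 to 9311622 (ATAC-seq, DE table) and 4256551 to 9571127 (ATAC-seq, EpiSC table), and limits from 3 counts cover counting error only. The B6 EpiSC RNA libraries are the same in both gene tables. Of 30 samples, 27 were used; the 3 PWK DE samples and 17 further columns are not analysed here, and 3 columns placed by strain carry no replicate number.

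Tests used edgeR 4.0.16 in R 4.3.3 on the counts (TMM scaling, filterByExpr, robust quasi-likelihood fits, Benjamini-Hochberg over all genes or peaks tested, called under 0.05), within each table. The strain fit of RNA held B6, PWK and B6129F1. SE is the log2 change divided by the root of F. Scripts were tested on simulated data. DESeq2 1.42.0, other scalings and filters, and libraries left out were alternatives. No 2 libraries of a group agreed within sampling noise. Same-numbered DE and EpiSC libraries did not meet the condition for pairing.

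Pth1r, Pthlh and all lists, the marker lists included, were chosen with earlier results of these data known. Named were every gene of the PTH family, in each other list the 2 most abundant members and the 2 called members with the largest change, tested neighbours, the 5 genes most like each member (3 for Pthlh in EpiSCs), peaks within 2 kb of a start or end, and the 3 called peaks with the largest change at each gene. Ramp1 and Ramp2 were named in addition, beside Ramp3. Promoter windows came from RefSeq's table of GRCm38.p6. Of 29555 gene identifiers, 29270 had a symbol.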

Additional observations from a re-analysis of the deposited data

Results flagged for a closer look

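At the peak chr9:110763483-110763695, over the start of Myl3, B6 EpiSC replicate 1 stood apart from its group, at 2.59 CPM against 3.54 to 3.72 in the other libraries. This was 1 of 30 groups of libraries looked at, and chance sets apart about 1 in 20 such groups (5%).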

How the results depend on the processing

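Recomputed under the alternatives, 182 counts stayed within 1.5 times and 38 moved further, 13 mean levels moved by less than 1 SD, and of the values for single genes or peaks 900 kept their direction and side of the threshold, 28 lost a call, 8 gained one and 9 turned direction. Total library size shifted the median log2 change of all peaks in DE by -0.22. Around Pth1r, peaks higher in DE numbered 3 within 10 kb and 10 within 100 kb. Peaks lower in DE numbered 3 with total library size, 2 with DESeq2, 3 with no filter, 0 within 10 kb and 3 within 100 kb, and 1 to 3 with 1 library left out. Around Pthlh, requiring 10 counts in every library left 1 higher and 1 lower peak, as did 10 kb. With the replicate number as a block, 1 Pthlh peak was lower, and 1 also in the same libraries with no block; the block also ended the call of Shh (log2 change -2.29), and against the same libraries with no block 52 list genes kept their call, 2 lost it (Gnal and Shh) and 6 gained one, all lower. No peak or neighbour changed against those libraries. Same-numbered RNA libraries correlated at 0.0958, 0.0881, 0.183 and 0.237 and each EpiSC library correlated best with its own number, a hint from the data and not the design. Same-numbered ATAC-seq libraries 4, 44 and 51 correlated at 0.0213, -0.00518 and 0.0485. There, EpiSC replicates 4 and 44 correlated better with another number, at 0.0291 and 0.0204. Between strains, no paired analysis was possible because the strains share fewer than 2 numbers.

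For PWK against B6, peaks higher at Pth1r numbered 0 with any library left out and 0 within 10 kb, and lower peaks 0 with 10 counts in every library and 0 within 10 kb. List counts ranged from 6 to 21 (higher) and 5 to 17 (lower) with 1 library left out. With a fold of at least 2 they were 6 and 5, and the fit of only these 2 groups gave 7 lower. Neighbours higher in DE numbered 1 with 10 counts in every library, and within 100 kb 2 neighbours were lower. Directions reversed for the Pthlh promoter peak in DE (-0.16 without EpiSC replicate 51, to 0.30 with others left out) and in PWK (0.028 without B6 replicate 4, to -0.34), and for the Pth1r peak at chr9:110745620-110746096 (0.28 without the unnumbered PWK library, to -1.23). They also reversed for the open peak at chr9:110732582-110732955 (-0.020 with total library size, and -0.00054 without DE replicate 2 to 0.20), Furin (0.12 without DE replicate 2, to -0.24) and Smo (0.024 without DE replicate 2, to -0.31). The cause was not tested. Low counts limit Pthlh and the weak peaks.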
